A study of Mus musculus with 33 samples.

Results

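Double-positive and double-negative populations of regulatory T cells (Treg) of the naive mouse colon were compared: cells carrying both TSLPR, the receptor chain for thymic stromal lymphopoietin (TSLP, gene Crlf2), and ST2, the receptor chain for interleukin 33 (IL-33, gene Il1rl1), and cells carrying neither. The libraries were chosen by their titles, which give 'naive' and the sorted gate, and are 8 of the 33 in the series: 4 double-positive (TSLPR+ST2+) and 4 double-negative (TSLPR-ST2-). Each of naive mice 1 to 4 gave 1 of each. All were Foxp3-yfp B6 mice, whose Foxp3-expressing cells can be sorted by a fluorescent reporter, and the naive mice received neither azoxymethane nor dextran sulfate sodium as far as the labels say. The submitters give an age of 7 to 12 weeks for purchased mice and no age for each animal. Colon tissue was treated with EDTA and digested with collagenase D and DNase, and 200 CD45+TCR+CD4+Foxp3+ cells per gate were sorted into lysis buffer. Each library is thus a full-length cDNA pool of 200 cells and not of single cells. The single-positive gates (TSLPR+ST2- and TSLPR-ST2+) of the same 4 mice are used for the levels between the extremes. The same contrast in 4 mice with colitis-associated cancer (mice 5 to 8, also Foxp3-yfp B6, given azoxymethane, a carcinogen, at 10 mg/kg, then dextran sulfate sodium in 3 cycles that lasted 7 days each, and taken 2 weeks after the last) is used as a repetition in other animals.

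TSLP and IL-33 are released mainly by epithelial and stromal cells at barrier surfaces. IL-33 binds ST2 and signals with the IL-1 receptor accessory protein through MyD88, whereas TSLP binds TSLPR together with the IL-7 receptor alpha chain and signals through STAT5. In the colon, ST2+ Treg are known as tissue-resident cells with high Gata3 and Klrg1, and as a population distinct from the Treg induced by the microbiota. Treg newly arrived from lymph nodes carry instead the homing receptors CCR7 and S1P1. The series asks how the 2 cytokines act on Treg in colorectal cancer, and this contrast sets the cells able to bind both against those able to bind neither.

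The bases upstream of the 2 genes that define the gates are shown. Those of S100a11 are shown because, among the windows of the 12 higher genes with the smallest p, none of the other available ones held a match to the motifs searched. RefSeq promoter sequences (GRCm38.p6) give the 250 bases before an annotated start. Capitals mark matches on either strand to AGATAA, which GATA factors are known to bind. They also mark TGANTCA, known for AP-1. The STAT-type motif TTCNNNGAA was searched as well, and the motifs did not overlap in these windows.
Il1rl1, first start, chr1:40429320-40429569, + strand: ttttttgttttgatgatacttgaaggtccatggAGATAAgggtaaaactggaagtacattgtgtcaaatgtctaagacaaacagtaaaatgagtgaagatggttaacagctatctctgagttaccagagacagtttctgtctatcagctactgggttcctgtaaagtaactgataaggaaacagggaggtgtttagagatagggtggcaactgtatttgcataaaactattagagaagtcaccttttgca
Il1rl1, second start, chr1:40439379-40439628, + strand: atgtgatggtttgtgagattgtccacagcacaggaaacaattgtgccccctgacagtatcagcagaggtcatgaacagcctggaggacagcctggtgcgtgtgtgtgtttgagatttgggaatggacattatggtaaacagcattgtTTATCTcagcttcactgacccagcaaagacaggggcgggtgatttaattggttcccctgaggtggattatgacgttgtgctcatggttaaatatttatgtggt
Crlf2, chr5:109558994-109559243, - strand: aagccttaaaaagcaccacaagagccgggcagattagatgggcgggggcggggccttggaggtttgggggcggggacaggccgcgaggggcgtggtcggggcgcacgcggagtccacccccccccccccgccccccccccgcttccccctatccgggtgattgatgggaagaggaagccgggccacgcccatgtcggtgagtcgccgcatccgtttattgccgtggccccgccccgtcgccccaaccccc
S100a11, chr3:93520246-93520495, + strand: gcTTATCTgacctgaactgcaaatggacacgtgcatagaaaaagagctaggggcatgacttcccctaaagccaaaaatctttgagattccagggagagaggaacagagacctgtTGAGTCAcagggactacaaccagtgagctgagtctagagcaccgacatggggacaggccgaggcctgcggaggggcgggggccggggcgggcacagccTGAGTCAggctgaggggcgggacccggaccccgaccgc
Both Il1rl1 windows hold 1 AGATAA match, at -217 and -103 from the start. The Crlf2 window holds none of the 3 motifs. The S100a11 window holds TGANTCA at -136 and -38 and AGATAA at -248. Among all genes tested with a RefSeq promoter (10162), 7.53% had the first motif in at least 1 of their windows, 5.34% the second and 7.11% the STAT-type. Among genes higher in double-positive cells (277 with a promoter) the shares were 9.75%, 6.14% and 5.78%, and among genes lower (221) 9.05%, 4.52% and 11.3%. These are shares of genes, which had on average 1.27 windows in all, 1.29 among the higher and 1.46 among the lower genes, and a gene with more windows has more chances of a match. They describe letters in the windows and not binding.

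The genes of the sorted receptors followed the gates. Values are CPM, gene counts scaled to the library total with TMM factors. The log2 folds are double-positive over double-negative with their standard error (SE). Adjusted p is from the edgeR quasi-likelihood F-test with Benjamini-Hochberg adjustment over 14861 genes, with a limit of 0.05. Il1rl1 (chromosome 1, 40429570 to 40465415, + strand) measured 174, 106, 294 and 174 CPM in the double-positive libraries of mice 1 to 4 and 0.732, 3.34, 2.75 and 0 in the double-negative ones. Crlf2 (chromosome 5, 109554709 to 109558993, - strand) measured 42.996, 53.2, 57.2 and 39.1 against 10.7, 8.76, 11.3 and 10.3 CPM. Neither gene's libraries overlapped, and the double-negative gate still had Crlf2 counts in every mouse. Since the cells were sorted on these proteins, this is a check of the labels and not a result. Foxp3, the lineage factor of Treg (chromosome X, 7573644 to 7595245, + strand), measured 148, 187, 107 and 176 CPM in double-positive and 175, 222, 199 and 213 in double-negative libraries. It was lower in double-positive cells of 4 of 4 mice, the 2 groups overlapped, and the difference did not pass (log2 fold -0.39 ± 0.22, adjusted p = 0.384). The 12 T cell identity markers (Cd3e, Cd4, Trac and others) summed to 9679.8 to 11604 CPM in double-positive and 10152 to 11750.4 in double-negative libraries, and 1 of the 12 passed, the adaptor Lat, which was lower (log2 fold -0.41 ± 0.09, adjusted p = 0.00669). Lat did not pass without mouse 3 (adjusted p = 0.0676) or mouse 4 (0.0813), or in a fit of the 8 libraries alone (0.0552). With the marker covariate described below Lat was at -0.54 (adjusted p = 0.222). Library totals ran from 6607867 to 8839946 counts in the double-positive and from 4910225 to 6927679 in the double-negative gate, and the genes detected from 16007 to 16720 and from 15836 to 16149.

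Markers of cells outside the Treg gate also differed between the 2 populations, and this touches every result that follows. In sums of plain CPM, without the TMM factors, the 18 macrophage and dendritic cell markers measured 4561, 4719, 3149.9 and 2507 CPM in the double-positive libraries of mice 1 to 4. In the double-negative libraries they summed to 77.1, 834, 39.9 and 229.6 CPM. The mean was 12.6 times higher and the groups did not overlap. The exact two-sided permutation p was 0.0286, the smallest that 4 against 4 allows, and 0.08 after Benjamini-Hochberg adjustment over 14 library measures. This test did not use the pairing by mouse. All 18 markers had counts, and 9 of 18 passed the gene test, all higher. Lyz2, the lysozyme of macrophages, measured 1504, 1317, 932 and 1083 against 11.1, 118, 4.13 and 109 CPM (log2 fold 4.33 ± 1.06, adjusted p = 0.0153), and Csf1r, the receptor for macrophage colony-stimulating factor, 56.8 to 68.6 against 0 to 2.18 CPM. The others were C1qa, C1qb and C1qc, the chains of complement C1q, the lysosomal Cd68, and the class II genes Cd74, H2-Aa and H2-Eb1. The single-positive gates had 1003 to 1258 CPM in TSLPR+ST2- and 819 to 2959.6 in TSLPR-ST2+ libraries. Lyz2 averaged 60.6 CPM in double-negative, 247 in TSLPR+ST2-, 869 in TSLPR-ST2+ and 1209 in double-positive libraries.

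Epithelial markers summed to 158 to 351 against 31.2 to 64.3 CPM (1 of 12 tested passed, Epcam, log2 fold 2.54 ± 0.55, adjusted p = 0.00469). ILC2 markers summed to 68.2 to 102 against 3.60 to 10.997 CPM. All 8 tested members had a log2 fold above 0 (median 2.68). Of these 1 passed, Il9r, which Treg also express. Il17rb, given below, separated without overlap and did not pass in this fit. Il5 had 0 counts in all 8 libraries. CD8, NK and gamma-delta T cell markers summed to 217 to 266 against 76.8 to 179 CPM, and Tyrobp and Fcer1g, also expressed by myeloid cells, passed. The NK genes Ncr1, Klrb1c, Klre1 and Klra7 were at 0. B and plasma cell markers overlapped (102 to 451 against 32.1 to 156 CPM). Of these Cd79b (64.5 to 157 against 24.8 to 71.8 CPM) and Blk (4.95 to 20.1 against 0 to 0.181 CPM) passed. Stromal and endothelial markers were lower in double-positive libraries (94.6 to 119 against 169.9 to 232 CPM), which was Pecam1, an adhesion molecule that T cells also carry (94.3 to 119 against 170.3 to 241 CPM, adjusted p = 0.00398). Mast cell and basophil markers were 0.226 to 13.8 against 2.34 to 10.5 CPM, with 9 of 13 at 0 counts, among them Mcpt1, Mcpt8 and Fcer1a. Neutrophil markers overlapped (15.9 to 72.1 against 4.89 to 106 CPM) and S100a9 and Ly6g were at 0. In such pools of cells, more cells of a type and more of its RNA per cell or free in the suspension cannot be told apart. Leaving out 1 mouse ended the calls of C1qb (mouse 4, adjusted p = 0.0584), C1qc (mouse 1, 3 or 4, adjusted p from 0.0556 to 0.0962), Cd74 (mouse 1 or 3, adjusted p from 0.0608 to 0.0744), H2-Aa (mouse 1, 3 or 4, adjusted p from 0.128 to 0.145), H2-Eb1 (mouse 1, 3 or 4, adjusted p from 0.108 to 0.167) and Lyz2 (mouse 1, 2, 3 or 4, adjusted p from 0.0558 to 0.103). The same was so for Epcam (mouse 2, adjusted p = 0.0592), Fcer1g (mouse 1, 2 or 3, adjusted p from 0.11 to 0.139), Cd79b (mouse 1, 3 or 4, adjusted p from 0.0987 to 0.301) and Blk (mouse 1, 2, 3 or 4, adjusted p from 0.114 to 0.189). H2-Aa (adjusted p = 0.0737) and H2-Eb1 (0.0849) did not pass with the mouse as a block in the 8 libraries.

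**Figure D1:**
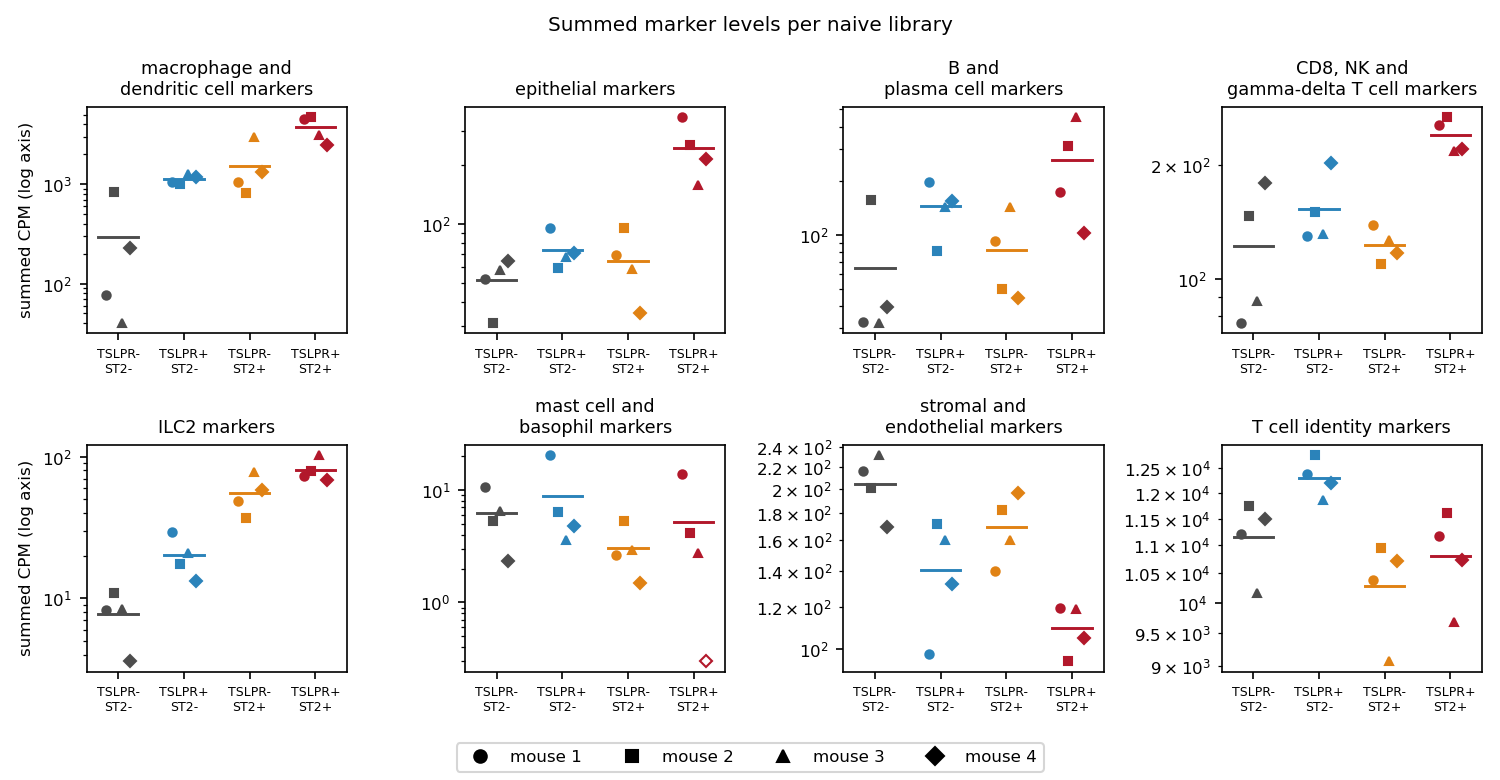
Summed CPM of 8 marker lists (log axis) in the 16 naive libraries, by gate; a point is 1 mouse, a line the mean of 4, and the open point marks a value below 0.3, drawn at 0.3. Macrophage and dendritic cell markers lie at 2507 to 4719 CPM in the TSLPR+ST2+ gate and at 39.9 to 834 in the TSLPR-ST2- gate, while T cell identity markers overlap in these 2 gates.

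Against this background, 372 genes were higher and 279 lower in double-positive than in double-negative Treg, 4.38% of the 14861 genes tested (2.5% higher and 1.88% lower). The higher genes changed more: 263 of the 372 by at least 2-fold and 135 by at least 4-fold, with a median of 2.94-fold, against 95 and 19 of the 279 lower genes and a median of 1.74-fold. The 4 double-positive libraries lay wholly above the 4 double-negative ones for 343 of the higher genes and wholly below for 247 of the lower genes. Such separation was found for 6.84% and 5.8% of all genes tested. All 4 mice moved in the called direction for 360 and 274 genes. The genes were called on these same libraries, which favours both the separation and the shared direction. For the shared direction the share over all genes is not given here. Fewer genes passed with 1 mouse left out: 364 without mouse 1, 304 without mouse 2, 415 without mouse 3 and 286 without mouse 4. Such fits also have fewer libraries per gate, and the part of this in lost calls was not tested. With the log2 summed macrophage and dendritic cell markers of each library as a covariate, a setting added after the values were seen, 28 higher and 11 lower genes passed. In that fit 366 of the 372 and 279 of the 279 kept their sign, the median share of the log2 fold kept was 0.864 and 0.953, and the median SE rose from 0.314 to 0.535 for the higher and from 0.173 to 0.294 for the lower genes. The covariate does not overlap between the 2 gates, so the gate and the marker level cannot be told apart fully.

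The 12 higher genes with the smallest p included the sorted gene Crlf2, Icos, Pdcd1, Ctla4 and Itgae. Icos, the costimulatory receptor of the CD28 family (chromosome 1, 60977927 to 61000320, + strand), measured 1236, 1688, 1049.9 and 1196 CPM in double-positive and 362, 404, 394 and 366 in double-negative libraries of mice 1 to 4. Every double-positive library was above every double-negative one, and the log2 fold was 1.76 ± 0.17 (adjusted p = 1.32e-07). Pdcd1, which encodes the inhibitory receptor PD-1 (chromosome 1, 94038305 to 94052553, - strand), measured 326, 299, 363 and 421 against 62.3, 86.98, 42.02 and 77.1 CPM (log2 fold 2.39 ± 0.27, adjusted p = 1.12e-06). Ctla4, the inhibitory receptor by which Treg take CD80 and CD86 from antigen-presenting cells (chromosome 1, 60887000 to 60915832, + strand), measured 1066, 1144, 994 and 1107 against 474, 564, 657 and 598 CPM (log2 fold 0.91 ± 0.11, adjusted p = 3.24e-06). These 3 genes were higher in 4 of 4 mice, Pdcd1 by the largest factor. Itgae, the alpha chain CD103 that pairs with beta 7 and binds E-cadherin (chromosome 11, 73090583 to 73147446, + strand), measured 439, 496, 876 and 742 against 85.8, 179.8, 167 and 101 CPM (log2 fold 2.26 ± 0.26, adjusted p = 2.08e-06). Its spread among double-positive libraries was wide, yet the lowest of them was 439 CPM, above the highest double-negative value of 179.8. Cst7, a cysteine protease inhibitor of cytotoxic granules, measured 299, 321, 227 and 287 against 90.9, 85.1, 69.7 and 76.4 CPM. S100a11, a calcium-binding S100 protein, measured 137, 141, 109 and 142 against 54.1, 46.9, 36.1 and 30.1 CPM. Id2, an inhibitor of E proteins that favours effector differentiation, measured 165, 288, 178 and 199 against 43.02, 74.9, 36.2 and 64.9 CPM (log2 fold 1.92 ± 0.24, adjusted p = 5.06e-06).

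The remaining genes of this group are known less for Treg. Ttn, the giant muscle protein titin (chromosome 2, 76703980 to 76982547, - strand), measured 95.2, 134, 115 and 211 CPM in double-positive and 13.6, 9.39, 13.8 and 11.4 in double-negative libraries, the largest log2 fold of the 12 (3.52 ± 0.41, adjusted p = 2.69e-06). Psen2, a catalytic subunit of gamma-secretase, the protease that releases the Notch intracellular domain, measured 270.1, 349, 299.8 and 299 against 82.97, 96.8, 131 and 135 CPM (log2 fold 1.45 ± 0.17, adjusted p = 3.24e-06). Serinc3, a membrane protein of the serine incorporator family, measured 1464, 1696, 1997 and 1651 against 969, 866, 921 and 825 CPM (log2 fold 0.93 ± 0.11, adjusted p = 3e-06). Cldnd1, a claudin-domain protein, measured 262, 374, 355 and 391 against 109, 127, 94.4 and 88.5 CPM (log2 fold 1.72 ± 0.19, adjusted p = 1.01e-06). None of these groups overlapped. With the macrophage and dendritic cell markers as a covariate, 9 of the 11 genes other than Crlf2, the sorted gene, still passed, among them Icos at a log2 fold of 1.50 (adjusted p = 0.0197) and Pdcd1 at 2.41 (adjusted p = 0.0113). Id2 at 1.12 (adjusted p = 0.299) and Cldnd1 at 1.19 (adjusted p = 0.113) did not.

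The lower genes with the smallest p are given next. Ly6c1, a surface protein of the Ly6 family (chromosome 15, 75044018 to 75048830, - strand), measured 121, 72.5, 65.7 and 81.9 CPM in double-positive and 494, 622, 408 and 505 in double-negative libraries (log2 fold -2.57 ± 0.24, adjusted p = 8.78e-08). Ly6c1 lies among near-identical Ly6 copies, so its counts depend on how shared reads were assigned. Bcl2, the survival factor of resting lymphocytes (chromosome 1, 106538178 to 106714274, - strand), measured 232, 216, 166 and 162 against 712, 825, 599.8 and 832 CPM (log2 fold -1.94 ± 0.24, adjusted p = 4.27e-06). Gpr83, an orphan receptor known as a marker of Treg of lymphoid tissue (chromosome 9, 14860210 to 14870789, + strand), measured 235, 244, 289 and 234 against 613, 696, 799 and 702 CPM (log2 fold -1.49 ± 0.20, adjusted p = 1.43e-05). These 3 had the largest decreases of the group, and their libraries did not overlap. Klf2, the transcription factor that drives S1pr1, measured 293, 274, 271 and 314 against 507, 549.8, 601 and 486 CPM (log2 fold -0.90 ± 0.12, adjusted p = 9.38e-06). It was lower in 4 of 4 mice. Cytip, a regulator of leukocyte adhesion (chromosome 2, 58129137 to 58195532, - strand), had the smallest p of the genes named in both directions, with 901, 858, 873 and 868 against 1618, 1573, 1345 and 1657 CPM (log2 fold -0.82 ± 0.08, adjusted p = 5.23e-08). Foxn3, a forkhead repressor, measured 187, 266, 232 and 218 against 510.0, 487, 458 and 469.5 CPM. Evl, an actin regulator of the Ena/VASP family, measured 114, 105, 118 and 141 against 235, 283, 278 and 277 CPM. Ms4a4b and Ms4a6b, 4-span membrane proteins of T cells, had log2 folds of -0.80 ± 0.10 and -0.70 ± 0.09, Slfn1, a Schlafen gene tied to T cell quiescence, -0.93 ± 0.13. Rexo2, a mitochondrial exonuclease, was at -0.95 ± 0.13. With the marker covariate Ly6c1 (log2 fold -3.06, adjusted p = 7.57e-05), Bcl2 (log2 fold -1.80, adjusted p = 0.0299), Cytip, Foxn3, Ms4a4b, Ms4a6b and Slfn1 passed. Klf2 (log2 fold -0.86, adjusted p = 0.0597), Gpr83 (log2 fold -1.08, adjusted p = 0.204), Evl (log2 fold -0.98, adjusted p = 0.0855) and Rexo2 (log2 fold -0.93, adjusted p = 0.0802) did not.

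**Figure D2:**
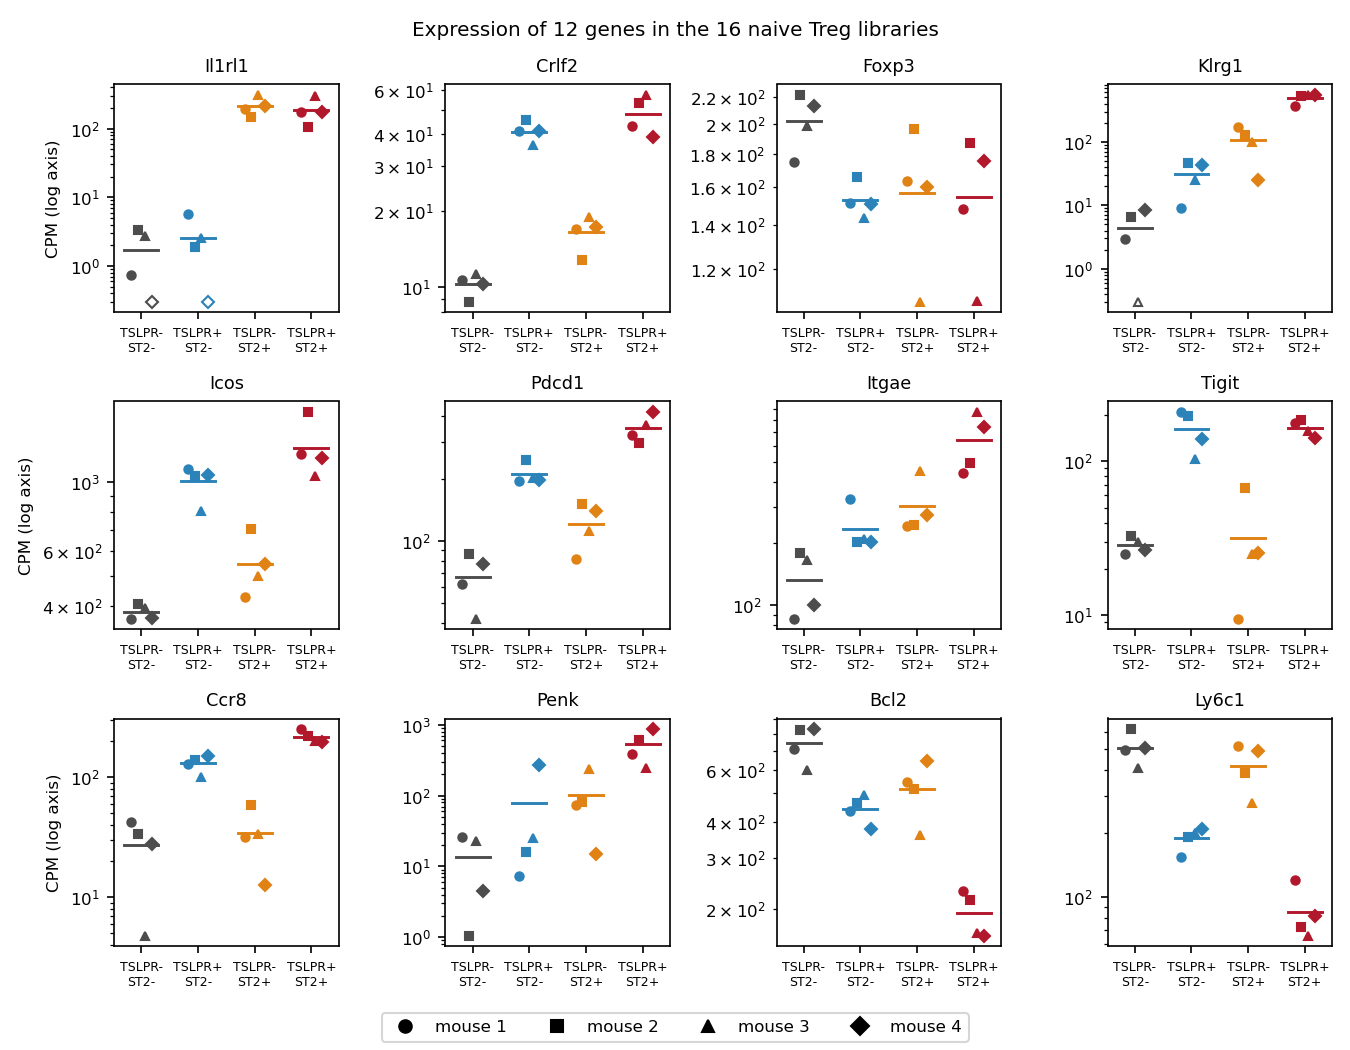
CPM (log axis) of 12 genes in the 16 naive libraries, by gate; a point is 1 mouse, a line the mean of 4, and open points are libraries below 0.3 CPM, drawn at 0.3. Icos, Pdcd1, Itgae, Klrg1 and Penk are highest and Bcl2 and Ly6c1 lowest by mean in the TSLPR+ST2+ gate, and Foxp3 overlaps between the TSLPR+ST2+ and TSLPR-ST2- gates.

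**Figure D3:**
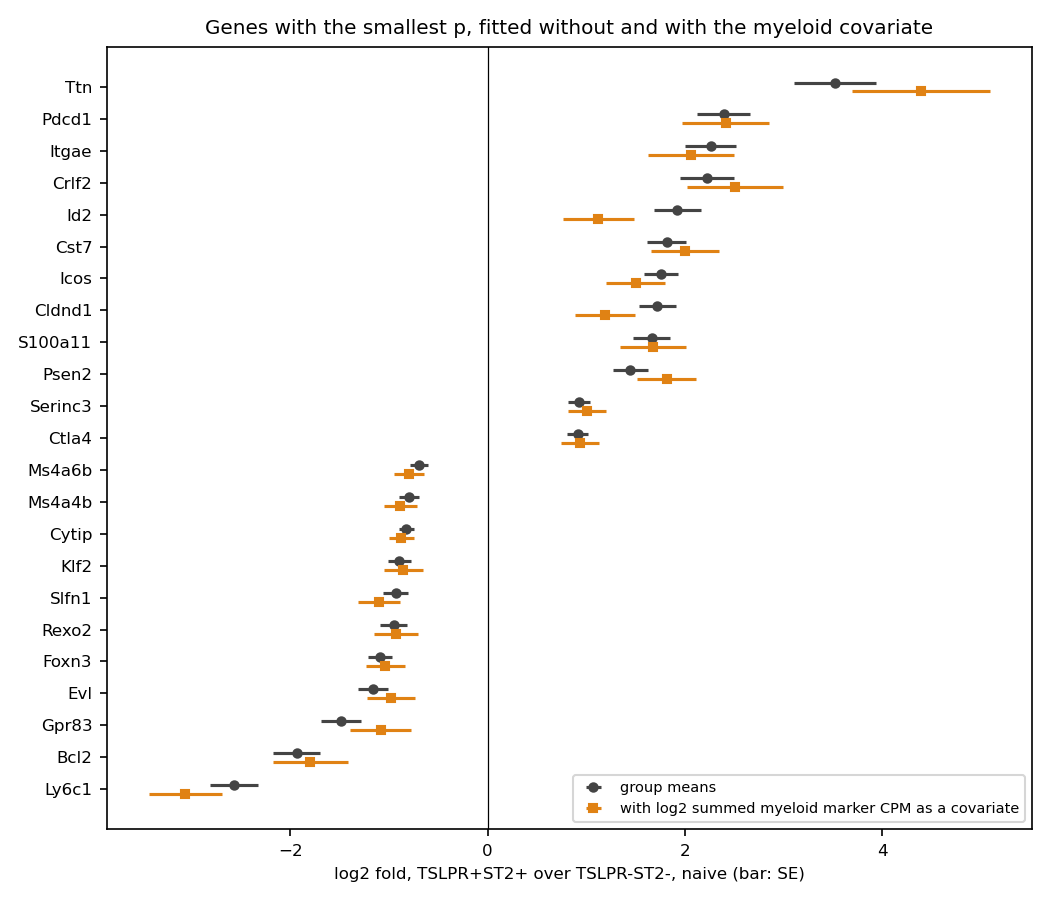
Log2 fold (point) and SE (bar) of 23 of the genes named first in each direction, fitted with group means (circles) and with the log2 summed macrophage and dendritic cell markers as a covariate (squares). All 23 genes drawn keep their sign; Id2 moves from 1.92 to 1.12 and Ly6c1 from -2.57 to -3.06.

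Over all genes tested 2.5% were called higher and 1.88% lower, shares to set beside the member counts of each list below. The lists were chosen with earlier results of these data known, so their counts describe and are no independent support. The list of effector tissue Treg genes, which holds many genes known for the ST2+ state, had 18 of 26 members higher and none lower in double-positive cells, with a median log2 fold of 1.83 against 0 over all genes tested. Of its transcription factors, Batf, an AP-1 partner of IRF4 needed for tissue Treg, measured 373, 385, 347 and 424 against 221, 230.1, 195 and 204 CPM (log2 fold 0.85 ± 0.15, adjusted p = 0.000581). Rora, a nuclear receptor shared with ILC2, measured 150.3, 187, 161 and 151 against 55.3, 58.8, 49.8 and 50.1 CPM (log2 fold 1.60 ± 0.23, adjusted p = 3.87e-05). Nfil3 (90.4 to 149.5 against 21.04 to 41.9 CPM), Gata3, the factor that binds the Il1rl1 locus in T helper 2 cells (129 to 207 against 79.1 to 91.4 CPM), and Prdm1, which encodes Blimp-1 (53.4 to 177 against 9.32 to 46.1 CPM), were higher as well, at log2 folds of 1.87 ± 0.32, 0.94 ± 0.24 and 1.93 ± 0.48. Pparg, the nuclear receptor of fat tissue Treg, had 0 counts in all 4 double-negative libraries and 22.6, 9.40, 12.6 and 17.2 CPM in the double-positive ones, at least 123-fold higher when 3 counts over the group are taken as the floor (adjusted p = 0.0419). It missed the limit when the mouse was a block in the model (adjusted p = 0.052) and was at 0.381 CPM in TSLPR+ST2- and 9.996 in TSLPR-ST2+ libraries. Leaving out 1 mouse ended the calls of Gata3 (mouse 1, 3 or 4, adjusted p from 0.0524 to 0.196), Prdm1 (mouse 2, 3 or 4, adjusted p from 0.0509 to 0.188) and Pparg (mouse 1, 2, 3 or 4, adjusted p from 0.133 to 0.171). All of these factors lost their call with the marker covariate (adjusted p from 0.226 for Rora to 0.86 for Prdm1), with log2 folds of 0.79 for Batf, 1.37 for Rora, 1.28 for Nfil3, 1.22 for Gata3 and 1.02 for Prdm1. Prdm1 also missed the limit with the mouse as a block in the 8 libraries (adjusted p = 0.101).

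Among surface molecules of the same list the largest difference was in Klrg1, an inhibitory lectin of terminally differentiated Treg (chromosome 6, 122270596 to 122282882, - strand). It measured 366, 528, 548 and 549.7 CPM in double-positive and 2.93, 6.47, 0 and 8.34 in double-negative libraries (log2 fold 6.86 ± 0.95, adjusted p = 3.3e-05). Ccr8, the CCL1 and CCL8 receptor of tissue Treg, measured 252, 219, 201 and 198 against 41.9, 33.4, 4.74 and 27.7 CPM (log2 fold 3.01 ± 0.52, adjusted p = 0.000378). Il9r, a receptor chain for IL-9, measured 36.8, 28.6, 46.6 and 34.4 CPM and had 13 counts in the 4 double-negative libraries together. No double-negative library of these 3 genes reached the lowest double-positive one. Tnfrsf9, the costimulatory receptor 4-1BB, measured 544, 570.3, 548 and 644 against 270.4, 205, 246 and 255 CPM. Tnfrsf4, the receptor OX40, measured 968 to 1751 against 771 to 1083 CPM, Cd83 324 to 738 against 129.9 to 202 CPM and Ccr2 90.9 to 206 against 32.1 to 87.6 CPM. Their log2 folds were 1.24 ± 0.23, 0.60 ± 0.16, 1.79 ± 0.27 and 1.66 ± 0.42. Of the secreted products, Penk, the precursor of enkephalin peptides, measured 392, 601, 249 and 875 against 25.6, 1.04, 23.2 and 4.53 CPM (log2 fold 5.25 ± 1.10, adjusted p = 0.00406). Ebi3, a subunit of IL-35 and IL-27, measured 72.7, 60.9, 67.99 and 56.5 against 14.05, 11.7, 7.79 and 6.89 CPM (log2 fold 2.67 ± 0.34, adjusted p = 8.68e-06). Fgl2, a suppressive fibrinogen-like protein also made by macrophages, measured 139, 258, 283 and 215 against 17.9, 7.93, 29.8 and 29.9 CPM (log2 fold 3.38 ± 0.45, adjusted p = 1.43e-05). With the marker covariate Klrg1 (log2 fold 6.55, adjusted p = 0.0473), Tnfrsf9, Cd83 and Ebi3 passed. Fgl2 was at 3.73 (adjusted p = 0.0505). Ccr8 (log2 fold 2.94, adjusted p = 0.247), Il9r (log2 fold 4.30, adjusted p = 0.386), Penk (log2 fold 5.43, adjusted p = 0.426), Tnfrsf4 (log2 fold 0.74, adjusted p = 0.424) and Ccr2 (log2 fold 0.31, adjusted p = 0.979) did not pass. Leaving out 1 mouse ended the calls of Tnfrsf4 (mouse 1, 2 or 4, adjusted p from 0.0915 to 0.171) and Ccr2 (mouse 1 or 3, adjusted p from 0.0804 to 0.125).

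Some products for which colon ST2+ Treg are known did not pass. Areg, the epidermal growth factor receptor ligand amphiregulin, was low in both gates, with every double-positive library above every double-negative one (4.24, 17.8, 7.60 and 9.78 against 3.80, 1.88, 0.764 and 1.27 CPM, adjusted p = 0.488). Il10, the suppressive cytokine, measured 50.9, 83.9, 43.4 and 55.9 against 5.85, 10.8, 6.26 and 79.98 CPM, where the double-negative library of mouse 4 was above 3 of the 4 double-positive ones (log2 fold 1.19 ± 1.15, adjusted p = 0.706). Gzmb, the protease granzyme B, measured 408, 870.1, 257 and 489.5 against 0, 97.8, 16.5 and 52.96 CPM with no overlap, and did not pass (log2 fold 3.61 ± 1.22, adjusted p = 0.102). These 3 genes were named after their values were seen. Of the suppressive and repair products, 5 of 20 were higher and none lower (median log2 fold 1.39). Beside Penk, Ebi3 and Fgl2 they were Entpd1, the ectoenzyme CD39 (76.8 to 135 against 31.01 to 55.7 CPM, log2 fold 1.38 ± 0.32), and Lgals3, galectin 3, which macrophages and epithelial cells also make (41.4 to 174 against 2.72 to 6.67 CPM, log2 fold 4.13 ± 0.78). Tgfb1 measured 87.96 to 104 against 48.6 to 72.4 CPM (adjusted p = 0.104). It passed as higher with limma-voom and the mouse as a random effect (adjusted p = 0.0297), with DESeq2 (0.0396) and in the 16 naive libraries alone (0.0487). Entpd1 did not pass without mouse 3 or 4 (adjusted p = 0.0551 and 0.102), and with the marker covariate Entpd1 was at 1.06 (adjusted p = 0.652) and Lgals3 at 2.27 (adjusted p = 0.738). Lgals3 did not pass with limma-voom and the mouse either (adjusted p = 0.18).

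In the list of naive and central T cell genes, 13 of 20 members were lower and none higher, with a median log2 fold of -0.83. Besides Ly6c1, Bcl2 and Klf2 they include the transcription factors of resting T cells. Satb1, a chromatin organiser, measured 343, 247, 313 and 242 against 611, 593, 646 and 701 CPM (log2 fold -1.16 ± 0.19, adjusted p = 0.000182). Lef1, the partner of TCF-1, measured 322, 257, 307 and 279 against 434, 446, 479 and 405 CPM (log2 fold -0.60 ± 0.14, adjusted p = 0.00689). Foxp1 (231 to 335 against 455 to 508 CPM), Id3 (158 to 301 against 379.6 to 408 CPM) and Bach2, a repressor that holds Treg in the resting state (30.4 to 72.8 against 77.7 to 121 CPM), had log2 folds of -0.76 ± 0.14, -0.75 ± 0.17 and -1.17 ± 0.35. Tcf7, which encodes TCF-1, measured 339, 270.1, 509 and 449.7 against 584, 563, 771 and 578 CPM without overlap and did not pass (log2 fold -0.67 ± 0.20, adjusted p = 0.0524), but passed with the mouse as a block (adjusted p = 0.0137). S1pr1, the receptor by which T cells leave tissue along sphingosine-1-phosphate, measured 495, 445, 522 and 531 against 989.9, 889, 1082 and 856 CPM (log2 fold -0.94 ± 0.14, adjusted p = 8.36e-05). Ccr7, the receptor for lymph node homing, measured 732, 481, 387 and 352 against 942, 1073, 993 and 920.1 CPM (log2 fold -1.01 ± 0.21, adjusted p = 0.00343). Both trafficking receptors were lower without overlap between the groups. Rasgrp2, an activator of Rap1 in integrin signalling (48.7 to 101 against 136 to 169.7 CPM, log2 fold -1.14 ± 0.21), and Actn1 (11.5 to 18.3 against 22.8 to 31.3 CPM, log2 fold -0.92 ± 0.26) were lower too. Calls were lost when 1 mouse was left out for Lef1 (mouse 2, adjusted p = 0.0901), Id3 (mouse 1 or 3, adjusted p from 0.0923 to 0.0997), Bach2 (mouse 2, 3 or 4, adjusted p from 0.227 to 0.301), Ccr7 (mouse 2, 3 or 4, adjusted p from 0.0506 to 0.0558) and Actn1 (mouse 1, 2, 3 or 4, adjusted p from 0.115 to 0.234), and Actn1 also with the mouse as a block (adjusted p = 0.0685). With the marker covariate 2 of these 13 passed (Ly6c1 and Bcl2). The others had adjusted p from 0.0597 (Klf2) to 0.88 (Actn1), and the list median was -0.83 in that fit too. The log2 folds there were -1.13 for Satb1, -0.94 for Foxp1, -0.96 for Ccr7, -1.004 for Bach2, -0.72 for Id3 and -0.95 for Rasgrp2. Lef1 was at -0.43, S1pr1 at -0.55 and Actn1 at -0.52. With the mouse as a block in the 8 libraries Bach2 (adjusted p = 0.0672) and Actn1 (0.124) did not pass, and Tcf7 did (0.0245).

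**Figure D4:**
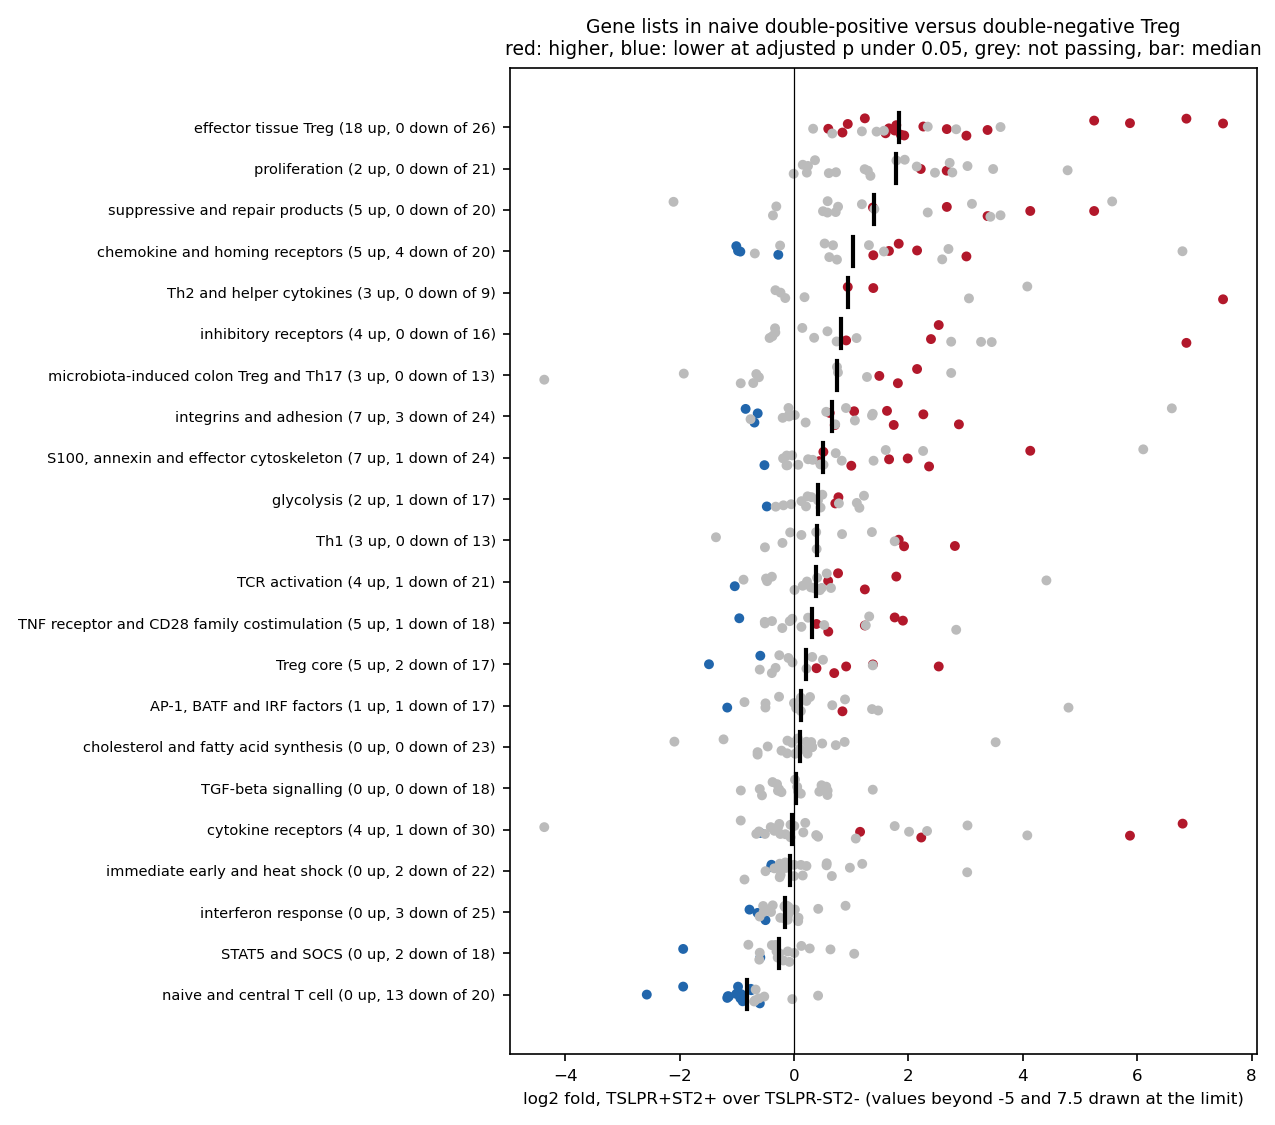
Log2 fold of double-positive over double-negative for each tested member of 22 gene lists, with the median as a bar and calls in colour; the list names carry the counts of members higher and lower of those tested. The effector tissue Treg list lies wholly above 0 and the naive and central T cell list has 19 of 20 members below 0.

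Of the Treg core genes, 5 of 17 were higher and 2 lower (median log2 fold 0.22). Tigit, an inhibitory receptor for CD155, measured 177, 185, 158 and 141 CPM in double-positive and 25.2, 32.7, 29.8 and 26.7 in double-negative libraries (log2 fold 2.53 ± 0.33, adjusted p = 9.38e-06). Capg, an actin-capping protein of effector Treg (936 to 1174 against 578 to 694 CPM, log2 fold 0.70 ± 0.10), and Tnfrsf18, the receptor GITR (435 to 604 against 345 to 459 CPM, log2 fold 0.39 ± 0.11), were higher together with Ctla4 and Entpd1. Il2ra, the IL-2 receptor alpha chain CD25, was lower (455, 519.8, 434 and 581 against 664, 772, 639 and 919 CPM, log2 fold -0.59 ± 0.15, adjusted p = 0.0192), as was Gpr83. Il2ra lost its call without any 1 of the 4 mice (adjusted p from 0.0658 to 0.108) and Tnfrsf18 without mouse 1, 2 or 4 (from 0.107 to 0.15). Lrrc32, the TGF-beta docking receptor GARP, measured 181 to 462 against 311 to 577 CPM (adjusted p = 0.263), and Itgb8, whose product activates latent TGF-beta, 27.5 to 69.9 against 7.64 to 29.02 CPM (adjusted p = 0.158). No gene of the TGF-beta signalling list passed in this fit (0 of 18), with Tgfb1, which passed in the other fits given above, nearest and Smurf2, a ligase that removes TGF-beta receptors, next at a log2 fold of -0.93 ± 0.33 (adjusted p = 0.124). Smurf2 passed as lower with the mouse as a block (adjusted p = 0.0315). Lrrc32 passed as lower with the mitochondrial share of counts as a covariate (log2 fold -0.89, adjusted p = 0.0197). With the marker covariate Tigit was at 2.53 (adjusted p = 0.0505), Capg at 0.71 (adjusted p = 0.118) and Il2ra at -0.70 (adjusted p = 0.392).

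Inhibitory receptors were higher in 4 of 16 cases (Pdcd1, Klrg1, Tigit and Ctla4) and lower in none. Of the tumour necrosis factor receptor and CD28 families, 5 of 18 were higher and 1 lower. Tnfrsf1b, the tumour necrosis factor receptor TNFR2 that supports Treg expansion, measured 583, 888, 1471 and 1034 against 202, 177, 422 and 261 CPM (log2 fold 1.90 ± 0.32, adjusted p = 0.000272). Fas, the death receptor, was the lower one, at 72.7, 121, 71.8 and 90.2 against 188, 161, 154 and 187 CPM (log2 fold -0.96 ± 0.20, adjusted p = 0.00404, not passing without mouse 1 or 4 at 0.0823 and 0.0568). Of 21 T cell receptor activation genes, 4 were higher, Tnfrsf9, Cd83, the phosphatase Dusp5 (138 to 184 against 78.9 to 132 CPM, log2 fold 0.60 ± 0.17) and Nfatc1 (332 to 627 against 223 to 306 CPM, log2 fold 0.77 ± 0.21), and 1 lower, Myc (286, 216, 185 and 216 against 431, 469.5, 449 and 501 CPM, log2 fold -1.04 ± 0.17, adjusted p = 0.000282). Nfatc1 lost its call without any 1 of the 4 mice (adjusted p from 0.0658 to 0.159), and Dusp5 without mouse 1, 2 or 4 (from 0.125 to 0.273). In the fit with the marker covariate Tnfrsf1b was at 2.36 (adjusted p = 0.0787), Fas at -1.26 (adjusted p = 0.179) and Myc at -0.85 (adjusted p = 0.329).

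Receptors for position in the tissue split in both directions. Of the chemokine and homing receptors 5 of 20 were higher and 4 lower. The higher ones were Ccr8, Ccr2, Gpr15, which directs Treg to the colon (108, 145, 117 and 179 against 53.6, 23.99, 31.6 and 14.1 CPM, log2 fold 2.15 ± 0.34, adjusted p = 0.000135), Cxcr3, the receptor for interferon-induced chemokines (152 to 263 against 40.1 to 74.4 CPM, log2 fold 1.83 ± 0.45), and Ccr4, the receptor for CCL17 and CCL22 (73.2 to 142 against 43.2 to 48.6 CPM, log2 fold 1.39 ± 0.34). Among the lower ones were Ccr7, S1pr1 and Selplg, which encodes the adhesion ligand PSGL-1, whose change was small (1394 to 1507 against 1647 to 1799 CPM, log2 fold -0.27 ± 0.07). Of 24 integrins and adhesion molecules, 7 were higher and 3 lower. Itgb1, the beta 1 integrin chain for matrix binding, measured 322, 507, 639 and 477 against 189.6, 119, 204 and 117 CPM (log2 fold 1.63 ± 0.27, adjusted p = 0.000207). Cd44, the hyaluronan receptor of activated T cells, measured 86.7, 178, 189 and 143 against 65.1, 28.8, 51.6 and 31.9 CPM (log2 fold 1.74 ± 0.27, adjusted p = 0.000124). The tetraspanins Cd82 (425 to 566 against 191 to 293 CPM) and Cd81 (222 to 307 against 141 to 189.8 CPM), Emb (214 to 311 against 142 to 214 CPM) and Alcam (10.1 to 25.3 against 0.209 to 3.45 CPM) were higher beside Itgae. Itga6 (97.5 to 169 against 205 to 268 CPM), Icam2 (82.3 to 117 against 126 to 170.5 CPM) and the tetraspanin Cd9 (41.8 to 62.8 against 72.1 to 93.4 CPM) were lower, at log2 folds of -0.85 ± 0.18, -0.63 ± 0.13 and -0.69 ± 0.15. The covariate fit kept Gpr15 (log2 fold 2.79, adjusted p = 0.0392), Itgb1 (log2 fold 2.55, adjusted p = 0.00377), Cd44 (log2 fold 2.25, adjusted p = 0.0418) and Itgae and none of the others named here. The log2 folds of the others that were higher were then 1.92 for Cxcr3, 0.99 for Ccr4, 1.39 for Cd82, 0.90 for Cd81, 0.35 for Emb and 4.15 for Alcam, against 1.05, 0.71, 0.62 and 2.88 without the covariate for the last 4. Those that were lower had -0.95 (Itga6), -0.69 (Icam2), -0.65 (Cd9) and -0.20 (Selplg). Leaving out 1 mouse ended the calls of Cxcr3 (mouse 1, 2 or 4, adjusted p from 0.0597 to 0.147), Ccr4 (mouse 1, 2 or 3, adjusted p from 0.0674 to 0.109), Selplg (mouse 1, 2, 3 or 4, adjusted p from 0.0855 to 0.19), Cd81 (mouse 2, 3 or 4, adjusted p from 0.0761 to 0.102) and Emb (mouse 3, adjusted p = 0.0845). It also ended those of Alcam (mouse 1, 2 or 3, adjusted p from 0.0959 to 0.137), Itga6 (mouse 4, adjusted p = 0.0815), Icam2 (mouse 2 or 4, adjusted p from 0.056 to 0.068) and Cd9 (mouse 4, adjusted p = 0.0682). Alcam also missed the limit with the mouse as a block (adjusted p = 0.0611). With the mouse as a block in the 8 libraries Cd9 (adjusted p = 0.0504), Emb (0.0588) and Selplg (0.0518) did not pass.

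Of 30 cytokine receptor chains 4 were higher (Il1rl1, Crlf2, Il9r and Il10ra) and 1 lower (Il2ra), with a median log2 fold of -0.03. The first 2 are the genes of the sorted receptors, and without them 2 of 28 were higher. Il10ra, the IL-10 receptor chain, measured 198, 204, 354 and 231 against 102, 106, 141 and 93.8 CPM (log2 fold 1.16 ± 0.24, adjusted p = 0.00343; with the marker covariate log2 fold 1.37, adjusted p = 0.258). Il17rb, a chain of the IL-25 receptor, is also on the ILC2 marker list. It separated without overlap (27.9, 26.9, 40.9 and 32.4 against 1.02, 2.50, 3.97 and 0 CPM) and did not pass (adjusted p = 0.0755). It passed with the mouse as a block in the 8 libraries (adjusted p = 0.0269), with limma-voom and the mouse (0.00846), with DESeq2 (0.0052) and in the fits of the 16 naive or the 8 libraries alone (0.0016 and 0.0103). Of the Th2 and helper cytokine genes 3 of 9 tested were higher: Gata3, Ccr4 and Il4. Il4 had 0 counts in all 4 double-negative libraries and 3.03, 12.2, 5.39 and 10.9 CPM in the double-positive ones, at least 64.6-fold higher over the same floor (adjusted p = 0.016), a call lost with the mouse as a block in the 8 libraries (0.0523) and without any 1 of the 4 mice (from 0.0755 to 0.108). Il5, Il9 and Il3 had no counts in the 8 libraries and Il13 had 4. For the genes of microbiota-induced colon Treg and Th17 cells, 3 of 13 were higher. They were Maf, the factor that drives Il10 (198, 214, 160.4 and 151 against 70.8, 76.3, 49.2 and 61.3 CPM, log2 fold 1.49 ± 0.21, adjusted p = 3.3e-05), Ahr, the aryl hydrocarbon receptor (69.3 to 103 against 13.4 to 37.3 CPM, log2 fold 1.82 ± 0.53), and Gpr15. Of the Th1 list 3 of 13 were higher, Cxcr3, Id2 and Ccl5 (66.4 to 157 against 4.83 to 28.4 CPM, log2 fold 2.81 ± 0.56). Ahr did not pass without mouse 1, 2 or 4 (adjusted p from 0.0774 to 0.264), and with the marker covariate Maf was at 0.87 (adjusted p = 0.47), Ahr at 1.71 (adjusted p = 0.738) and Ccl5 at 1.57 (adjusted p = 0.688).

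S100, annexin and effector cytoskeleton genes were higher in 7 of 24 cases and lower in 1. S100a6 measured 289, 218, 243 and 225 against 72.7, 61.3, 44.8 and 67.1 CPM (log2 fold 1.99 ± 0.26, adjusted p = 9.38e-06). S100a10 measured 525 to 714 against 373 to 533 CPM and Anxa4 63.5 to 100.4 against 10.3 to 22.1 CPM. Ahnak, a giant scaffold protein, measured 123 to 146 against 32.8 to 96.4 CPM and Tagln2, an actin-binding transgelin, 384 to 462 against 274 to 339.6 CPM. Emp3 was the lower one (219 to 371 against 334 to 442 CPM, log2 fold -0.52 ± 0.15). Proliferation genes had 20 of 21 members above 0 and a median log2 fold of 1.79, and 2 of 21 passed. Mki67, the proliferation antigen Ki-67, measured 80.8, 46.3, 27.9 and 27.7 against 4.83, 18.4, 7.94 and 8.34 CPM (log2 fold 2.22 ± 0.63, adjusted p = 0.0381). Cdca8, a subunit of the chromosomal passenger complex, measured 25.4, 69.4, 2.45 and 8.21 against 3.07, 3.75, 6.57 and 3.08 CPM (log2 fold 2.67 ± 0.79, adjusted p = 0.0487). Cdca8 was highest in double-positive cells of mouse 2, and in mouse 3 the double-positive library was below all 4 double-negative ones. Top2a, a topoisomerase of dividing cells, measured 84.2, 107, 32.3 and 13.4 against 9.51, 8.55, 19.3 and 15.96 CPM and did not pass (adjusted p = 0.0655). Top2a passed with DESeq2 (adjusted p = 0.0134), in the 16 naive libraries alone (0.0344) and with counts thinned to equal totals (0.0488). With the mouse as a block, Mki67 (adjusted p = 0.0611) and Cdca8 (adjusted p = 0.116) did not pass, and the list median was 1.33. It was 0.90 without mouse 2 and 0.50 with the marker covariate. Of the glycolysis genes Tpi1 (199 to 298 against 123 to 151 CPM) and Hif1a, the hypoxia factor (179.9 to 289 against 114 to 172 CPM), were higher and Eno1 (496 to 716 against 792 to 850.2 CPM, log2 fold -0.48 ± 0.09) lower of 17. In the cholesterol and fatty acid synthesis list 0 of 23 passed, with Fdft1, squalene synthase, nearest (62.2 to 93.4 against 30.03 to 46.8 CPM, adjusted p = 0.186). Fdft1 passed in the fits of the 16 naive libraries (adjusted p = 0.0292) or the 8 libraries alone (0.0351). Leaving out 1 mouse ended the calls of S100a10 (mouse 2 or 4, adjusted p from 0.11 to 0.133), Anxa4 (mouse 2, 3 or 4, adjusted p from 0.0623 to 0.11), Ahnak (mouse 3 or 4, adjusted p from 0.167 to 0.187), Tagln2 (mouse 1, adjusted p = 0.0734) and Emp3 (mouse 2 or 4, adjusted p from 0.203 to 0.302). It did so too for Mki67 (mouse 1, 2, 3 or 4, adjusted p from 0.0706 to 0.329), Cdca8 (mouse 1, 2 or 4, adjusted p from 0.101 to 0.488), Tpi1 (mouse 1 or 2, adjusted p from 0.0731 to 0.14) and Hif1a (mouse 1, 3 or 4, adjusted p from 0.0649 to 0.159). With the covariate S100a11, given above, passed (log2 fold 1.67 (adjusted p = 0.0196)) and none of the genes named in this paragraph did. With the mouse as a block in the 8 libraries Ahnak (adjusted p = 0.0711) and Emp3 (0.0523) did not pass.

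Of 25 interferon response genes 3 were lower and none higher: Usp18, the brake on the interferon receptor (282, 263, 372 and 199 against 546, 454, 438 and 476 CPM, log2 fold -0.78 ± 0.22), Rtp4 (242 to 329 against 391 to 487 CPM, log2 fold -0.64 ± 0.13) and Irf9, a subunit of the interferon-activated ISGF3 factor (414 to 489 against 568 to 698 CPM, log2 fold -0.50 ± 0.12). Immediate early and heat shock genes, which tissue digestion can raise, had 2 of 22 lower (Dnaja1 at -0.40 ± 0.09 and Dnajb1 at -0.39 ± 0.10 on the log2 scale) and none higher. In the STAT5 and SOCS list 2 of 18 were lower (Il2ra and Bcl2), and of 17 AP-1, BATF and IRF factors Batf was higher and Bach2 lower. These list counts rest on few genes, where 1.88% of all genes tested were lower and 2.5% higher. Calls were lost without 1 mouse for Usp18 (mouse 1, 2 or 4, adjusted p from 0.142 to 0.269), Irf9 (mouse 1, 2 or 4, adjusted p from 0.0609 to 0.117), Dnaja1 (mouse 1, 3 or 4, adjusted p from 0.0706 to 0.116) and Dnajb1 (mouse 1, 3 or 4, adjusted p from 0.0778 to 0.137). With the mouse as a block in the 8 libraries Dnaja1 (adjusted p = 0.0809) and Dnajb1 (0.0523) did not pass. With the marker covariate Rtp4 was at -0.61 (adjusted p = 0.367).

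The single-positive gates of the same mice are set side by side with the extremes. Icos averaged 381 CPM in double-negative, 1007 in TSLPR+ST2-, 545 in TSLPR-ST2+ and 1292 in double-positive libraries. Tigit averaged 28.6, 163, 31.8 and 165 CPM and Ccr8 26.9, 129.8, 34.004 and 217 CPM in that order of gates, so that for these genes the means of the TSLPR+ gates were the higher ones. Klf2 (536, 292, 529.7 and 288 CPM) was lower by mean in both TSLPR+ gates and close to the double-negative level in TSLPR-ST2+ cells. Itgb1 had the other order, with 157, 141, 512 and 486 CPM, as did Il9r with 0.662, 2.56, 37.2 and 36.6 CPM. Klrg1 (4.43, 30.9, 106 and 498 CPM), Penk (13.6, 79.8, 103 and 529 CPM) and Itgae (133, 236, 305 and 638 CPM) had a higher mean in either single-positive gate than in the double-negative gate and the highest in the double-positive one. The gates share animals and these orders were not tested gate by gate.

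Whether the double-positive level differs from the sum of the 2 single steps on the log2 scale was tested as an interaction, (TSLPR+ST2+ minus TSLPR+ST2-) minus (TSLPR-ST2+ minus TSLPR-ST2-). No gene passed with edgeR (0 of 14861, 0%, while 791 or 5.32% had an unadjusted p under 0.05), and 54 passed with DESeq2. The 5 named genes with the smallest p had adjusted p of 0.754 each. Npm1, the nucleolar protein nucleophosmin, averaged 462 CPM in double-negative, 559 in TSLPR+ST2-, 521 in TSLPR-ST2+ and 349 in double-positive libraries (interaction log2 -0.85 ± 0.19). Prg4, which encodes lubricin, had the same shape, with 140.2, 222, 204 and 110.5 CPM (-1.54 ± 0.37), and Tagln2 was highest by mean in TSLPR-ST2+ cells (-0.63 ± 0.14). Dusp5 (108, 96.1, 89.7 and 163 CPM, 1.03 ± 0.24) and Cdkn2aip (1.06 ± 0.25) had positive interactions. For Icos the interaction was -0.15 ± 0.24, for Klrg1 -0.61 ± 1.10, for Klf2 -0.00 ± 0.16 and for Bcl2 -0.67 ± 0.32, none of which passed. The last came from means of 742, 442, 518 and 194 CPM. A p that misses the limit does not show that the steps add up.

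The same contrast was made in the 4 cancer mice, which share no library with the naive ones. Both contrasts come from the same fit and its shared estimate of the spread, so their calls are not fully independent. Of the 372 genes higher in naive double-positive cells 358 had the same sign in cancer mice and 221 (59.4%) passed there in the same direction, where 4.61% of all genes were called higher. Of the 279 lower genes 270 had the same sign and 145 (52.0%) passed, where 3.43% of all were called lower. None passed in the opposite direction, and 8.03% of all genes were called in either. As shares of the cancer calls, these are 32.3% of 685 higher and 28.5% of 509 lower genes. Icos had a log2 fold of 1.76 ± 0.17 in cancer mice (adjusted p = 6.85e-08), Klrg1 7.43 ± 0.96 (8.75e-06), Itgae 1.65 ± 0.26 (8.14e-05), Bcl2 -1.98 ± 0.24 (2.24e-06) and Ly6c1 -2.10 ± 0.24 (1.02e-06). The double-positive libraries of cancer mice measured 1112, 1185, 1515 and 986 CPM of Icos and the double-negative ones 468, 269.7, 317 and 358. Foxp3 passed in cancer mice, where double-positive cells had less (log2 fold -1.02 ± 0.22, adjusted p = 0.00314). The naive minus cancer difference for Foxp3 was 0.63 ± 0.31 on the log2 scale and did not pass (adjusted p = 0.552). The macrophage and dendritic cell markers also separated the gates in cancer mice (2940.4 to 6998 against 99.2 to 316 CPM), so the repetition does not hold them fixed. With the marker covariate 32 higher and 20 lower genes passed there. The double-positive library of mouse 7 stood apart: its epithelial markers summed to 15073 CPM, against 609, 266 and 200.3 in mice 5, 6 and 8 and 50.9 to 85.5 in double-negative libraries. The mitochondrial share of counts was 1.43 to 3.23% in double-positive and 1.25 to 1.60% in double-negative libraries of cancer mice. A fit with this share as a covariate was among the settings tried, and its calls in cancer mice are not given here. Without mouse 7, 165 of the 372 higher genes (44.4%) passed, where 2.22% of all genes were called higher. Of the 279 lower genes 105 (37.6%) passed, where 1.90% were called lower. Icos was then at 1.60 ± 0.19 (adjusted p = 1.57e-05), Itgae at 1.49 ± 0.31 (0.00503), Bcl2 at -1.71 ± 0.18 (3.18e-06) and Foxp3 at -1.09 ± 0.22 (0.00317).

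The difference between naive and cancer mice passed for no gene with edgeR (0%, and 1324 or 8.91% at an unadjusted p under 0.05) and for 69 with DESeq2. The genes with the smallest p of this test are given as values. H2-Q6, a class I gene of the Qa-2 family with near-identical copies, measured 873, 1044, 1082 and 1041 against 635, 613, 639.7 and 611 CPM in naive mice (log2 fold 0.69 ± 0.09, adjusted p = 8.68e-06) and had 0.01 ± 0.09 in cancer mice (difference adjusted p = 0.116). Ikzf2, which encodes the Treg factor Helios, had a log2 fold of 0.32 ± 0.16 in naive and 1.32 ± 0.16 in cancer mice (difference adjusted p = 0.24). The naive difference of Ikzf2 passed with the mouse as a block in the 8 libraries (adjusted p = 0.0464), and that of Capn3 with limma-voom and the mouse (0.0156). Capn3, a calpain protease, had -0.68 ± 0.24 and -2.25 ± 0.25, and Hdac7, a histone deacetylase, 0.33 ± 0.20 and -0.93 ± 0.20. Zfp940 measured 18.9, 23.8, 13.1 and 5.29 against 9.22, 7.51, 8.25 and 19.2 CPM in naive mice and 0, 0, 0 and 0 against 0, 9.73, 23.9 and 4.51 in cancer mice. None of these 5 differences held after adjustment over all genes. With 1 cancer mouse left out, Zfp940 passed without mouse 5 (adjusted p = 0.0175) and Amigo2, an adhesion protein, without mouse 7 (adjusted p = 0.00805).

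**Figure D5:**
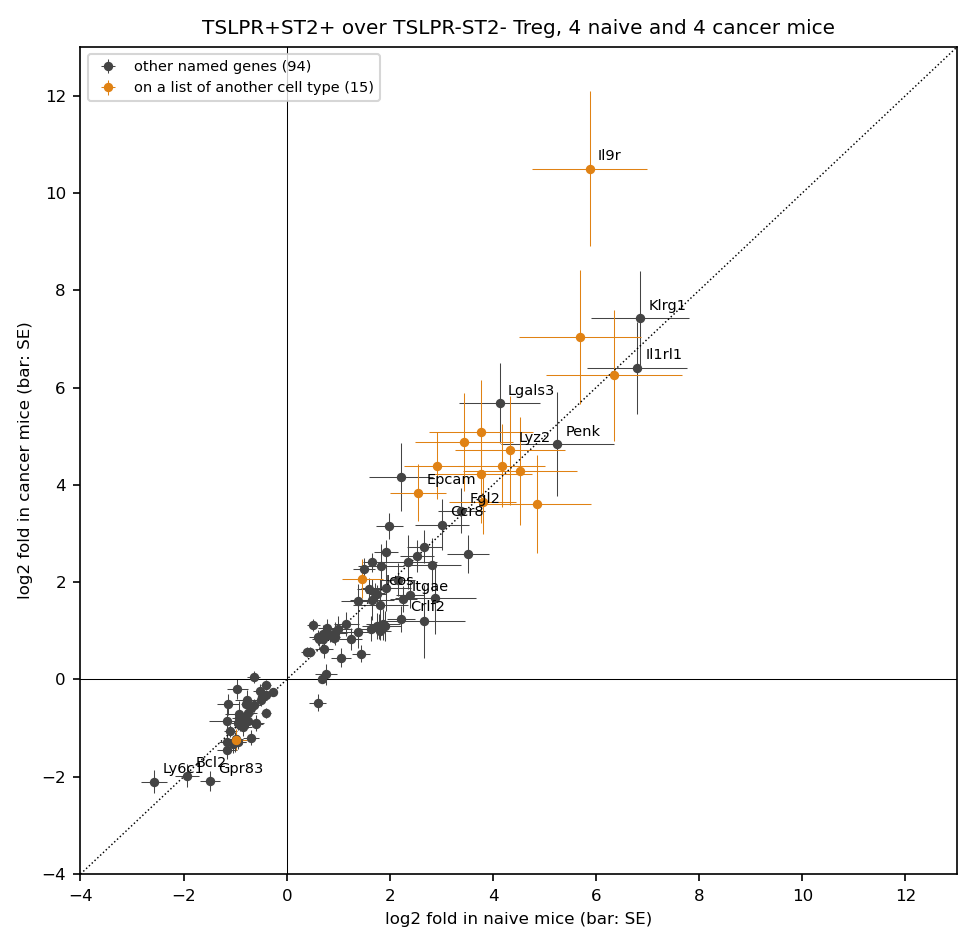
Log2 fold of double-positive over double-negative in naive (x axis) and cancer mice (y axis), with SE bars, for the 109 named genes called in naive mice that had more than 3 counts in each naive gate; the dotted line marks equality. 107 of 109 have the same sign in both, and the 15 orange points belong to lists of other cell types.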

How the data were processed

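RNA of 200 sorted cells per library was amplified with SMART-Seq v4, made into Nextera XT libraries and read as 58-base single reads, per the labels' protocols. The deposited values are whole-number counts per gene for 33 libraries, and the submitters' processing notes name HTSeq 0.4.1, Picard 1.134, FastQC 0.11.3, SAMtools 1.2 and GRCm38. Aligner, annotation release and use of strand: not given in the sources used here. Reads of overlapping or antisense genes may be shared. No molecular identifiers were used, so counts hold amplified copies and precision at low counts is less than counting error alone would give.

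The counts were tested with edgeR 4.0.16 (R 4.3.3) after TMM scaling and a low-count filter (minimum count 10, minimum total 15), which left 14861 genes. The quasi-likelihood fit (robust) held 8 group means over the 32 Treg libraries, which share 1 estimate of the spread, and no term for the mouse. P-values were adjusted by Benjamini-Hochberg over all genes tested with a limit of 0.05. Treg totals ran from 4038718 to 8839946 counts. On simulated data of this design (14220 genes) 21 of 100 genes changed 2-fold and 39 of 100 changed 4-fold were recovered, all with the right sign, with 2 false calls. Single values per library were compared by exact two-sided permutation, without the pairing by mouse.

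Gates of 1 mouse come from 1 animal. The same-mouse correlations of deviations from the group means were 0.023, 0.0336, 0.129 and -0.01 for mice 1 to 4, with a mean of 0.0439. Deviations from a group mean cancel out within a gate. The mean between different mice (-0.0146) therefore follows from the same-mouse mean and is no separate baseline. The fit with the mouse as a block is an alternative. In all 15 other settings were tried, with limma 3.58.1 and DESeq2 1.42.0 among the tools; the marker covariate was chosen after seeing the data, as were the fits that leave out 1 cancer mouse.

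The named genes are Foxp3, Crlf2 and Il1rl1; in each direction the 12 genes of smallest p whose mean reached 10 CPM where they were higher, with 1 direction in 4 of 4 mice, without unnamed, pseudo-, mitochondrial, ribosomal protein, immunoglobulin and T cell receptor segment genes; list members that passed, or otherwise up to 4 with the smallest p; and the 5 genes with the smallest p for the interaction and for the naive minus cancer difference. Areg, Il10, Gzmb, Lrrc32, Top2a, Il17rb and Tcf7 were picked after their values were seen where this rule does not reach them. Some genes that the rule names are not reported here. The genes, the 31 lists and the comparison were chosen with earlier results of these data known. Gene positions are from GENCODE M21 (GRCm38). Tables and figures were made with Python 3.11.15, pandas 2.3.3 and numpy 2.4.6.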

Additional observations from a re-analysis of the deposited data

Results flagged for a closer look

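In groups of 4 libraries, a value was singled out when its gap to the nearest other library was more than Dixon's critical value for 4 samples, as a share of the range of the group. Of 287 groups of 4 examined 15 met this, and chance alone gives about 1 in 20, so the number is near that of chance. In the double-positive library of mouse 3, the lowest value stood apart for S100a11 at 109 CPM (others 137 to 142). In the double-negative library of mouse 3, the lowest value stood apart for Ms4a4b at 1963 CPM (others 2393 to 2438). In the double-negative library of mouse 1, the lowest value stood apart for Evl at 235 CPM (others 277 to 283). In the double-positive library of mouse 1, the lowest value stood apart for Klrg1 at 366 CPM (others 528 to 549.7). In the double-positive library of mouse 2, the highest value stood apart for Nfil3 at 149.5 CPM (others 90.4 to 96.6). In the double-negative library of mouse 2, the highest value stood apart for Cd74 at 353 CPM (others 25.2 to 52.8), Cd79b at 71.8 CPM (others 24.8 to 31.01), H2-Aa at 86.4 CPM (others 0 to 11.6) and the summed B and plasma cell markers at 156 CPM (others 32.1 to 39.3). In the double-negative library of mouse 1, the highest value stood apart for Ccr4 at 48.6 CPM (others 43.2 to 43.7). In the double-negative library of mouse 4, the highest value stood apart for Zfp940 at 19.2 CPM (others 7.51 to 9.22) and Il10 at 79.98 CPM (others 5.85 to 10.8). In the double-negative library of mouse 3, the highest value stood apart for Mmp9 at 111 CPM (others 4.80 to 14.8), Tcf7 at 771 CPM (others 563 to 584) and the summed neutrophil markers at 106 CPM (others 4.89 to 14.6). The B and plasma cell and class II values belong to 1 library, the double-negative one of mouse 2, whose macrophage and dendritic cell markers were also the highest of that gate. No explanation was tested.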

How the results depend on the processing

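The number of genes called in naive double-positive versus double-negative cells was 651, and leaving out 1 mouse gave 286 to 415 (171 to 238 higher, 107 to 177 lower). With the macrophage and dendritic cell markers as a covariate, chosen after seeing the data, 39 passed (28 higher, 11 lower), and in cancer mice 52 (32 and 20). DESeq2 called 1062 (670 higher), in cancer mice 1808 (1200 higher), for the interaction 54 (23 higher, 31 lower) and for the naive minus cancer difference 69 (26 and 43), where edgeR called 0. The replicate block, with the mouse as a term, gave 667 calls in 32 libraries (361 higher, 306 lower) and 683 in the 8 libraries (439 and 244), and limma-voom, in which the mouse was a random effect, gave 998 (441 lower). Leaving out 1 cancer mouse, also chosen after seeing the data, gave 627 to 973 calls in cancer mice (338 to 558 higher, 289 to 415 lower; the lowest without mouse 7; up to 1211, 740 and 471 with 1 naive mouse left out) and 0 to 1 for the naive minus cancer difference. RLE scaling gave 391 higher and 239 lower. Among the 112 named genes called, the block in 32 libraries ended 5 calls (adjusted p: Actn1 0.0685, Alcam 0.0611, Cdca8 0.116, Mki67 0.0611, Pparg 0.052), and of the other named genes Smurf2 (0.0315) and Tcf7 (0.0137) passed with it. The block in the 8 libraries ended 14 (Actn1 0.124, Ahnak 0.0711, Bach2 0.0672, Cd9 0.0504, Cdca8 0.304, Dnaja1 0.0809, Dnajb1 0.0523, Emb 0.0588, Emp3 0.0523, H2-Aa 0.0737, H2-Eb1 0.0849, Il4 0.0523, Prdm1 0.101, Selplg 0.0518), and Ikzf2 (0.0464), Il17rb (0.0269) and Tcf7 (0.0245) passed. Limma-voom with the mouse ended 4 (Cdca8 0.407, H2-Aa 0.0984, H2-Eb1 0.13, Lgals3 0.18), and Capn3 (0.0156), Il17rb (0.00846), Tcf7 (0.0238) and Tgfb1 (0.0297) passed. Cd74, H2-Aa and H2-Eb1 are part of the sum used as the marker covariate, so their folds in that fit are not a result about them. The direction reversed with the marker covariate for Cd74 (-0.16 on the log2 scale), Fcer1g (-0.91), Cd79b (-0.077), H2-Aa (-0.39), H2-Eb1 (-0.996), Csf3r (-0.79), Scd1 (-3.31), Prg4 (0.11), Il10 (-0.68), Mmp9 (1.69) and Hdc (-2.55). The last 2, which never passed, also reversed elsewhere: Mmp9 with the replicate block (0.88 in 32 and 0.48 in 8 libraries, 0.41 with limma-voom) and without mouse 3 (1.91; lowest with a mouse left out, -1.23), and Hdc without mouse 1 (-0.26), without mouse 2 (-0.32; highest with a mouse left out, 1.09) and with limma-voom and the mouse block (-0.092). Kit reversed without mouse 1 (-0.85, highest 0.72). Of the 112 genes, 61 kept their call in every fit that left out 1 mouse. The causes were not tested. At 4 mice a gate and 200 cells a library, low genes are the least certain.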

Other observations

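Ribosomal protein genes, which are on none of the lists, were on the lower side in double-positive cells. Of the 91 tested protein-coding ones 15 passed as lower and 0 as higher, where 1.88% of all genes tested were lower and 2.5% higher. Their median log2 fold was -0.42, where the median of all genes tested was 0. The median stayed between -0.30 (mitochondrial share as a covariate) and -0.58 (macrophage and dendritic cell markers as a covariate) in the other settings. The share of all counts in ribosomal protein genes was 2.07% ± 0.419 (SD, n = 4) in double-positive and 2.68% ± 0.352 in double-negative libraries, and overlapped. The 13 mitochondrially encoded genes tested had a median log2 fold of -0.15 and none passed.

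Of the 372 higher genes 27 had 0 counts in all 4 double-negative libraries. Of the 279 lower genes 3 had 0 counts in all 4 double-positive ones. The share of such genes among all genes tested is not given here. Library totals overlapped, with a mean of 7762512 counts in double-positive and 6061966 in double-negative libraries.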
